A study of Mus musculus with 14 samples.

Results

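Mouse embryonic fibroblasts, connective tissue cells grown from mouse embryos, were kept in medium without amino acids for 6 h or for 3 h, and the transcripts of the 6 h cells were compared with those of the 3 h cells. The comparison takes the libraries by their labels alone, 2 after 6 h and 2 after 3 h, which are 4 of the 14 in the series. It covers the 17696 of 40800 genes that passed a filter on low counts, and no unstarved library enters it. The cells of both times shared the same medium, which held dialyzed serum and lacked amino acids, and both were detached with trypsin and stored frozen in dialyzed serum before their total RNA was sequenced. The length of starvation is thus the named difference between them. The labels give no genotype, strain, passage or number of cultures for the fibroblasts, nor whether replicates are separate cultures, so the p-values speak only of the spread among these libraries, which may be technical. Where the change is set beside that of another starvation, cells after 6 h and after 3 h in medium without glucose were used, 2 libraries each, handled in the same way. These groups share no library with the amino acid groups.

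Cells without amino acids accumulate uncharged transfer RNAs, which activate the kinase GCN2. GCN2 phosphorylates the initiation factor eIF2, which slows protein synthesis but favours translation of the transcription factor ATF4. ATF4 in turn raises genes for amino acid transport, amino acid synthesis and the charging of transfer RNAs, together with feedback genes that dampen the response. In parallel the kinase complex mTORC1 leaves the lysosome, which releases autophagy, the breakdown of cell contents in lysosomes, and the MiT/TFE factors that drive lysosomal genes. Fibroblasts moved into fresh medium also show an early wave of serum and stress response genes, many of them controlled by the serum response factor SRF, AP-1 and YAP.

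Promoter sequences of 2 kinds are shown first, since they belong to genes of the stress response and of the actin cytoskeleton whose values follow. The CARE element, TGATGNAA, is a sequence that ATF4 with a C/EBP partner is known to bind, and the CArG box, CC followed by 6 A or T and then GG, is the sequence that SRF is known to bind. Both strands of 300-base windows (250 bases before to 50 after the start of transcription, RefSeq, build GRCm38.p6) were searched, and 11679 of the 17696 tested genes had such a window. A CARE element stood in 2.85% of them, against 38.46% (5 of 13) for the cytosolic aminoacyl-tRNA synthetases with a window and 35.29% (6 of 17) for the stress response factors. A CArG box stood in 1.67% of all windows, in 22.22% (4 of 18) for the actin cytoskeleton list and in 23.08% (3 of 13) for the immediate early genes outside AP-1. The fragments below run 5′ to 3′ on the strand of the gene, and capitals mark the match. TTGCATCA is a CARE element read on the other strand. Among the 4 genes with CARE elements below, Asns and Tars rose between 3 h and 6 h, while Chac1 and Atf3 fell. Of the 4 genes with CArG boxes, Cnn2, Actg1 and Vcl fell, and Myl9 was not called.
Asns: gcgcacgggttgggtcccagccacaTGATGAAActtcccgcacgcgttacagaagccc
Tars: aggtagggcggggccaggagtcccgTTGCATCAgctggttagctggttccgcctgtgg
Chac1: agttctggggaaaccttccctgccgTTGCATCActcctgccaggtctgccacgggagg
Atf3: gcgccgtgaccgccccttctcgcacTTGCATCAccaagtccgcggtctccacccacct
Cnn2: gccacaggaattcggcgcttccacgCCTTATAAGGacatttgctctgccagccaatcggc
Actg1: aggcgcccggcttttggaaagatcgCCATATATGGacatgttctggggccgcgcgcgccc
Vcl: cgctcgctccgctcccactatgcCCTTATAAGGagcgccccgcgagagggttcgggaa
Myl9: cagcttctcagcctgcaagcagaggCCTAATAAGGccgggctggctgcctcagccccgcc
They lie at chr6:7693200-7693257 on the minus strand (Asns), chr15:11399641-11399698 on the minus strand (Tars), chr2:119351024-119351081 on the plus strand (Chac1) and chr1:191183411-191183468 on the minus strand (Atf3). Those of the actin list lie at chr10:79988519-79988578 on the plus strand (Cnn2), chr11:120348551-120348610 on the minus strand (Actg1), chr14:20929148-20929205 on the plus strand (Vcl) and chr2:156775278-156775337 on the plus strand (Myl9). A match describes the letters and does not show that a factor is bound there. The matches begin 23 bases before the start of transcription in Asns, 15 in Tars, 193 in Chac1, 110 in Atf3, 56 in Cnn2, 90 in Actg1, 227 in Vcl and 161 in Myl9.

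With 1 transcript standing for each gene, the libraries held 42352163 and 55349652 reads after 6 h, against 42556094 and 45434196 after 3 h. Transcripts of the mitochondrial genome took 4.86% and 4.98% of the reads after 6 h, against 3.95% and 4.04% after 3 h. Replicates correlated across genes with r = 0.989 after 6 h and r = 0.987 after 3 h on the log2 CPM scale. The first principal component of all 14 libraries (35.9% of the variance) placed the 6 h libraries at 73.0 and 71.4 and the 3 h libraries at 6.85 and 7.89, far apart relative to the distance within each pair. CPM are read counts scaled to a common library total. A gene was called when edgeR's quasi-likelihood test gave a Benjamini-Hochberg adjusted p under 0.05 over all genes tested. Only called genes are said below to have risen or fallen, and the value after ± beside a log2 fold change is its standard error. Of 12 fibroblast markers, 10 were tested and 9 fell. The 12 summed to 2134 and 2138 CPM after 6 h, against 4425 and 4402 CPM after 3 h. Marker sums were scaled by library totals alone. CPM of single genes also carry TMM scaling factors, of 0.9999 and 0.9964 after 6 h, against 0.9306 and 0.9332 after 3 h. Sums after 3 h would thus be higher on the scale of single genes. The sum includes Vim, vimentin, and the type I collagen genes. As a single gene Vim was at 886 and 900.2 CPM after 6 h, against 2445 and 2453 CPM after 3 h. In bulk RNA, fewer cells of a type and less RNA per cell cannot be told apart. Markers of epithelium summed to at most 0.423 CPM. In the macrophage list Ptprc and Adgre1 had 0 reads in the 4 libraries, while Csf1r had 647 to 910, Cd68 189 to 266 and Cd14 134 to 254. Of 3 macrophage markers tested 1 fell, and the list summed to 24.9 and 25.2 CPM after 6 h, against 26.2 and 24.98 CPM after 3 h. Endothelial markers summed to 21.9 and 23.5 CPM, against 21.8 and 18.4 CPM. Among them Kdr had 828 to 1258 reads and was not called. Of 4 tested 1 rose, Tek, on few reads, 12 and 19 after 6 h, against 3 and 1 after 3 h. Tek was not called without any one of the 4 libraries. Neural markers, of which Sox2, Gfap and Rbfox3 were too low to test, summed to 185 and 193 CPM after 6 h, against 323 and 324 CPM after 3 h. Of 3 skeletal muscle markers tested 2 fell, with sums of 1.79 and 2.17 CPM after 6 h, against 6.70 and 5.35 CPM after 3 h. Of 2 adipocyte markers tested 1 fell, with sums of 0.756 and 0.470 CPM after 6 h, against 1.46 and 1.72 CPM after 3 h. None of the erythroid markers was called.

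Between 3 h and 6 h of amino acid starvation the expression of many genes changed, with nearly equal numbers rising and falling. Of 17696 genes, 8869 (50.1%) were called, 4375 (24.7%) higher and 4494 (25.4%) lower after 6 h. A change of at least 2-fold was reached by 1086 genes (6.14%) that rose and 968 (5.47%) that fell, and the median absolute log2 fold change of called genes was 0.55. Both libraries after 6 h lay above both after 3 h in 38.2% of all genes tested and below both in 37.3%. Of the 8869 called genes, 8858 had such separated libraries, and this holds for each called gene named in the text. The median over all genes tested was 0.0066, against which the lists below can be read. With library totals as the only scaling the median moved to 0.11, and 60.6% instead of 49.3% of the calls were higher. For the strongest changes, log2 CPM averaged over the 4 libraries had to reach 3. Libraries had to be separated, and provisional symbols were left out. A gene can reach that average through the time at which it is high. Ppm1e did so through 17.7 and 14.7 CPM after 6 h, against 3.61 and 3.47 CPM after 3 h. Tcim did so through 40.3 and 37.8 CPM after 3 h, against 4.04 and 4.32 CPM after 6 h. Within this ranking the 12 strongest rises spanned log2 fold changes of 1.54 to 2.19, and the 12 strongest falls spanned -2.72 to -3.77. Among these, Ccn2, Tcim, Has2, Apobr, Ccdc39, Zfp961 and Zmym6 share exon positions with another annotated gene, as do 42.4% of all genes tested, so part of their reads may belong to the neighbour. Of the genes named further on, the same holds for Actg1, Aldh1l2, Arntl, Atf5, Bcat2, Bhlhe40, Cars, Cars2, Ccnd1, Cdc45, Cdk6, Cdkn1a, Cln3, Col7a1, Ctsa, Cyp51, Ddit3, Dusp1, Elovl6, Ereg, Foxo1, Gcn1, Gins2, Hars, Hmgcs1, Hspa1a, Hspa8, Irs1, Irs2, Jun, Junb, Map1lc3b, Nfkb2, Nprl3, Nr1d1, Pdia4, Pfkm, Ppp1r15a, Psmd13, Psph, Rps2, Scd2, Slc38a9, Spred3, Sqstm1, Thbs1, Timp3, Txnip, Vcl, Wdr12, Yap1 and Zyx.

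**Figure D1:**
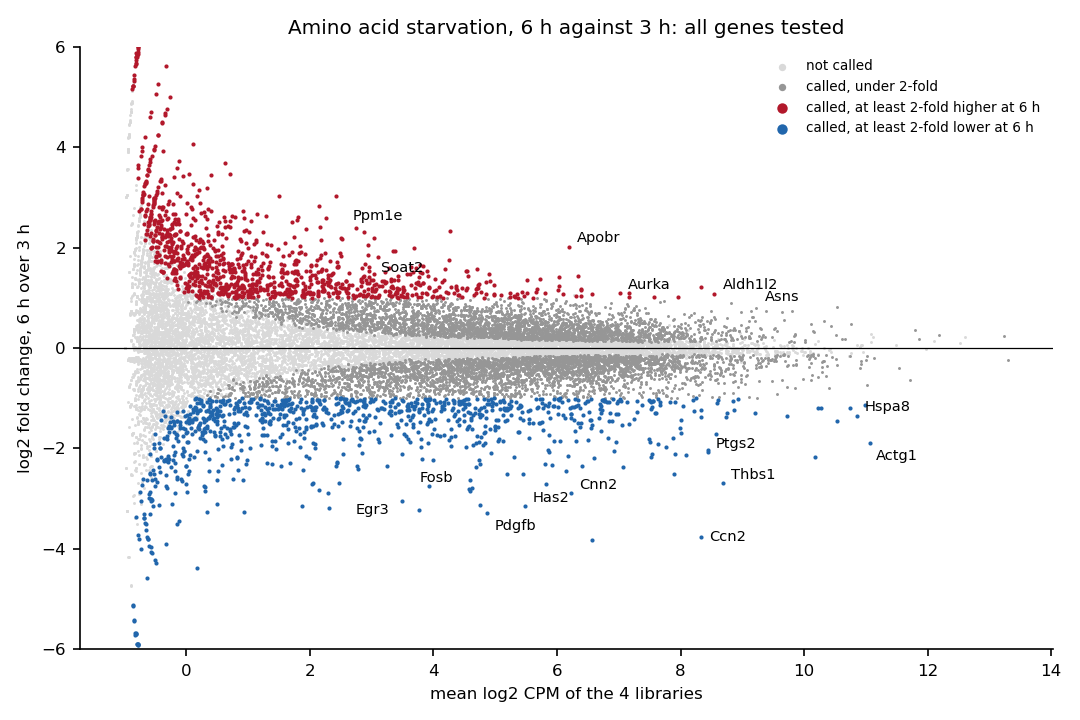
Log2 fold change of 6 h over 3 h of amino acid starvation (vertical axis) against the mean log2 CPM of the 4 libraries (horizontal axis) for all 17696 genes tested, with called genes in dark grey, red or blue and 35 genes of low count beyond the vertical range of 6. At high expression the largest falls, such as Ccn2 at -3.77, exceed the largest rises, such as Apobr at 2.02.

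The 12 steepest falls included genes of secreted, cytoskeletal and nuclear proteins, some of which are described with their groups. Ccn2, a matricellular protein and classical target of YAP, had 88.5 and 84.7 CPM after 6 h, against 1180.2 and 1177 CPM after 3 h. Its groups lay far apart, without overlap (log2 fold change -3.77 ± 0.063, edgeR adjusted p = 8.13e-27). Pdgfb, the B chain of platelet-derived growth factor, had 8.43 and 9.61 CPM after 6 h, against 85.5 and 91.2 CPM after 3 h (log2 fold change -3.29 ± 0.091, edgeR adjusted p = 5.48e-22). Has2, which makes the matrix polysaccharide hyaluronan, followed with 12.9 and 16.4 CPM after 6 h, against 131 and 132 CPM after 3 h (log2 fold change -3.15 ± 0.092, edgeR adjusted p = 2.09e-21). The matrix protease Adamts1 was at 21.7 and 21.7 CPM after 6 h, against 142 and 144 CPM after 3 h (log2 fold change -2.72 ± 0.063, edgeR adjusted p = 2.63e-23). In each of these genes both libraries after 6 h lay below both after 3 h. The cytokine Lif, the coagulation factor gene F3 (tissue factor), the chemokine Cxcl1, the neuronal early gene Arc and Tcim also stood among the 12, with log2 fold changes of -2.81, -2.79, -3.14, -2.75 and -3.22.

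The steepest rises were of a more mixed set. Ppm1e, a protein phosphatase that acts on CaM kinases and AMPK, had 17.7 and 14.7 CPM after 6 h, against 3.61 and 3.47 CPM after 3 h (log2 fold change 2.19 ± 0.13, edgeR adjusted p = 2.07e-14). Apobr, a receptor for lipoproteins that carry apolipoprotein B, had 145 and 147 CPM after 6 h, against 38.3 and 33.7 CPM after 3 h (log2 fold change 2.02 ± 0.07, edgeR adjusted p = 1.41e-19), and its exons overlap those of Cln3. Soat2, which esterifies cholesterol, was at 18.5 and 19.1 CPM after 6 h, against 5.76 and 4.08 CPM after 3 h (log2 fold change 1.94 ± 0.15, edgeR adjusted p = 5.19e-12). The libraries of the times did not overlap for any of them. Pif1 and Dna2, helicases that act on replicating DNA and telomeres, rose as well, Pif1 to 44.2 and 43.9 CPM after 6 h, against 15.8 and 13.6 CPM after 3 h, and Dna2 to 36.99 and 39.7 CPM after 6 h, against 13.2 and 13.2 CPM after 3 h. Wfs1, a membrane protein of the endoplasmic reticulum (ER), rose by 1.61 on the log2 scale. Zkscan8, Zfp961 and Zmym6, genes of zinc finger proteins, rose by 1.99, 1.59 and 1.58.

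**Figure D2:**
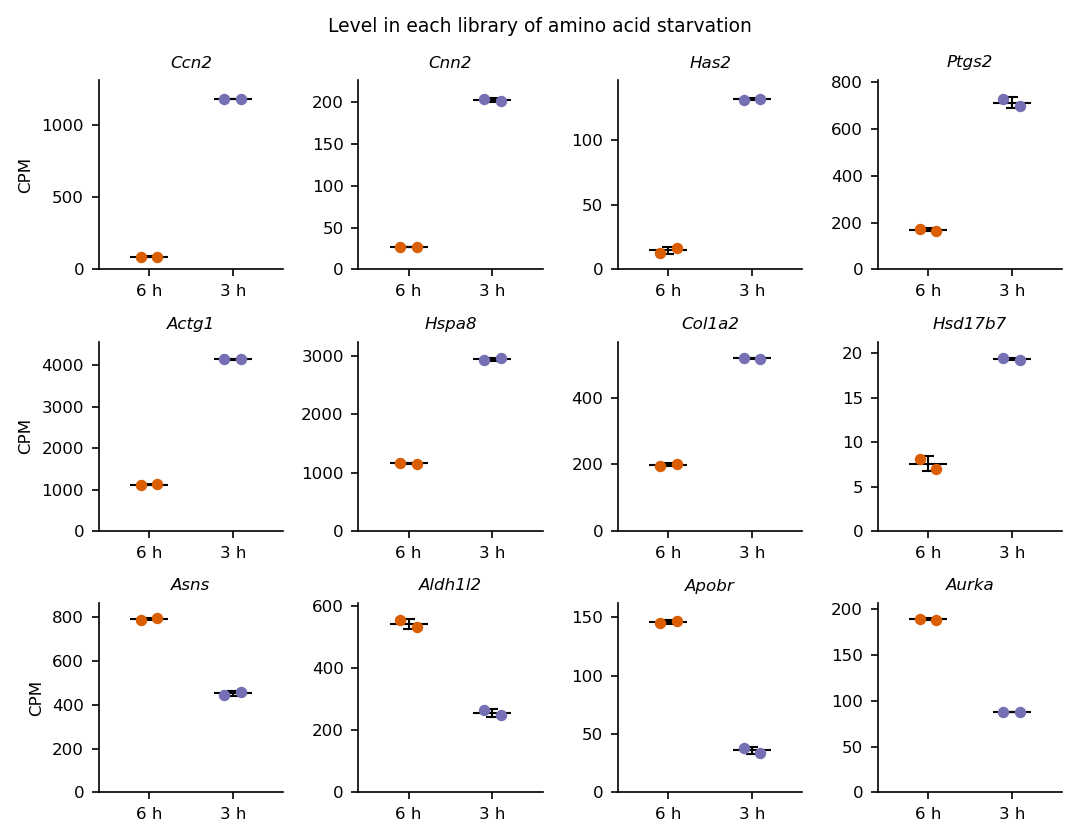
CPM in each library of amino acid starvation for 12 genes, with 6 h on the left and 3 h on the right of each panel, points for libraries, and a bar with whiskers for mean ± SD (n = 2). In every panel the 2 times are separated by far more than the distance between their libraries, as for Ccn2 with 88.5 and 84.7 CPM after 6 h, against 1180.2 and 1177 CPM after 3 h.

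Genes of the integrated stress response, the pathway of eIF2 and ATF4, divided evenly between 3 h and 6 h. Of the 20 stress response factors and feedback genes, 8 rose and 8 fell, and the median of -0.03 turned to 0.07 with library totals, where 8 rose and 5 fell, and to 0.0020 with a stricter filter on low counts. Atf4 itself had 1014 and 1031 CPM after 6 h, against 1134 and 1174 CPM after 3 h (log2 fold change -0.17 ± 0.052, edgeR adjusted p = 0.00609). That small fall was not called with library totals (log2 fold change -0.076) or without either replicate 2 of 3 h (-0.15) or replicate 1 of 6 h (-0.16). Atf5, a related bZIP factor, rose to 493 and 481 CPM after 6 h, against 217 and 204 CPM after 3 h (log2 fold change 1.21 ± 0.057, edgeR adjusted p = 1.35e-16). Cth, which makes cysteine from cystathionine, had 26.1 and 24.5 CPM after 6 h, against 9.82 and 9.70 CPM after 3 h (log2 fold change 1.37 ± 0.095, edgeR adjusted p = 8.07e-13). Trib3, a pseudokinase that restrains ATF4, was at 349 and 345 CPM after 6 h, against 230.4 and 223 CPM after 3 h (log2 fold change 0.61 ± 0.06, edgeR adjusted p = 1.1e-09). The libraries of the times did not overlap in any of these 4 genes. Over the same interval without glucose 11 of the 20 rose and 1 fell (median 0.28), where 17.8% of all genes rose and 15.5% fell. The difference of the changes, amino acid minus glucose, was called positive in 2 and negative in 8, against 12.5% and 16.3% of all genes.

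On the falling side, Atf3, a bZIP factor that represses many promoters, had 85.1 and 83.4 CPM after 6 h, against 236 and 247 CPM after 3 h (log2 fold change -1.52 ± 0.06, edgeR adjusted p = 3.02e-18). Ddit4 and Sesn2, inhibitors of mTORC1, fell by 1.06 and 0.68 on the log2 scale. Chac1, which degrades glutathione, was at 176 and 173 CPM after 6 h, against 246 and 239.6 CPM after 3 h (log2 fold change -0.48 ± 0.055, edgeR adjusted p = 2.92e-08). Ppp1r15a, the phosphatase subunit that reverses eIF2 phosphorylation, fell by 0.22 on the log2 scale. Ddit3, which encodes CHOP, was not called, with 92.8 and 105 CPM after 6 h, against 97.1 and 101 CPM after 3 h. Among the 7 eIF2 kinases and partners of GCN2, 2 rose and 4 fell, but without any one of the 4 libraries 1 or none rose, and 0 rose with transcript lines summed. Impact, an inhibitor of GCN2 activation, stood apart with 60.1 and 58.9 CPM after 6 h, against 127 and 127 CPM after 3 h (log2 fold change -1.10 ± 0.059, edgeR adjusted p = 3.79e-15), both libraries after 6 h below both after 3 h. The GCN2 gene Eif2ak4 fell by 0.28 on the log2 scale. The GCN2 activator Gcn1 rose by only 0.21, and it was not called without any one of the 4 libraries or with transcript lines summed (0.18 to 0.22 on the log2 scale).

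Of the genes that charge, carry and make amino acids, more rose than fell between 3 h and 6 h, and the same held without glucose. Of the 20 cytosolic aminoacyl-tRNA synthetases, 13 rose and 4 fell, with a median of 0.28. Tars, for threonine, had 1152 and 1161 CPM after 6 h, against 693 and 695 CPM after 3 h (log2 fold change 0.74 ± 0.05, edgeR adjusted p = 5.66e-13), and the enzymes for isoleucine (Iars), leucine (Lars) and glutamate with proline (Eprs) rose by 0.72, 0.71 and 0.61. In all 4 both libraries after 6 h lay above both after 3 h. Kars, for lysine, went the other way with 151 and 155 CPM after 6 h, against 235 and 235 CPM after 3 h (log2 fold change -0.62 ± 0.051, edgeR adjusted p = 4e-11), and Hars, Dars and Cars fell by 0.27, 0.18 and 0.14. Of the 17 mitochondrial synthetases, 8 rose and 2 fell (median 0.16), from Cars2, for cysteine, at -0.55 to Pars2, for proline, at 1.23. Without glucose 15 cytosolic synthetases rose and 0 fell (median 0.24), where 17.8% of all genes rose and 15.5% fell. Their difference was positive in 5 and negative in 5, where it was positive in 12.5% and negative in 16.3% of all genes. Of the mitochondrial ones 7 rose and 0 fell there (median 0.20), with a difference positive in 3 and negative in 3.

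Of the 22 amino acid transporters, 11 rose and 4 fell, with a median of 0.17. Slc7a3, a carrier of cationic amino acids, had 23.6 and 24.8 CPM after 6 h, against 8.84 and 7.97 CPM after 3 h (log2 fold change 1.53 ± 0.11, edgeR adjusted p = 4.62e-12). Slc36a1, a proton-coupled carrier of small amino acids found on lysosomes, rose to 59.5 and 57.9 CPM after 6 h, against 32.3 and 29.8 CPM after 3 h (log2 fold change 0.92 ± 0.075, edgeR adjusted p = 3.12e-11). Slc38a9, the lysosomal arginine sensor, rose by 1.01, and the glutamine carrier Slc1a5 and the cystine carrier Slc7a11 by 0.56 and 0.58. The abundant carrier of neutral amino acids Slc38a2 fell slightly, at 1627 and 1641 CPM after 6 h, against 1819 and 1816 CPM after 3 h. The LAT1 pair Slc7a5 and Slc3a2 both rose by 0.13. Slc1a3, a glutamate carrier, fell by 0.74. Without glucose 10 transporters rose and 5 fell (median 0.12). The difference was positive in 4 and negative in 2, against 12.5% and 16.3% of all genes.

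Of the 21 enzymes of amino acid synthesis and one-carbon metabolism, 14 rose and 3 fell. The median was 0.40. Asns, asparagine synthetase, had 786 and 795 CPM after 6 h, against 444 and 459 CPM after 3 h (log2 fold change 0.81 ± 0.051, edgeR adjusted p = 1.35e-13). Aldh1l2, a mitochondrial enzyme of folate metabolism, was at 555 and 532 CPM after 6 h, against 265 and 248 CPM after 3 h (log2 fold change 1.08 ± 0.058, edgeR adjusted p = 2.62e-15). Pycr1 and Aldh18a1, of proline synthesis, rose by 0.78 and 0.54. Psat1, Psph and Phgdh, of serine synthesis, rose by 0.45, 0.34 and 0.22, and Gpt2, which makes alanine, by 0.56. Ass1, of arginine synthesis, and Bcat2, of branched-chain amino acid breakdown, fell by 0.71 and 0.78. Without glucose 15 of the 21 enzymes rose and 1 fell (median 0.46), and the difference was positive in 4 and negative in 5.

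**Figure D3:**
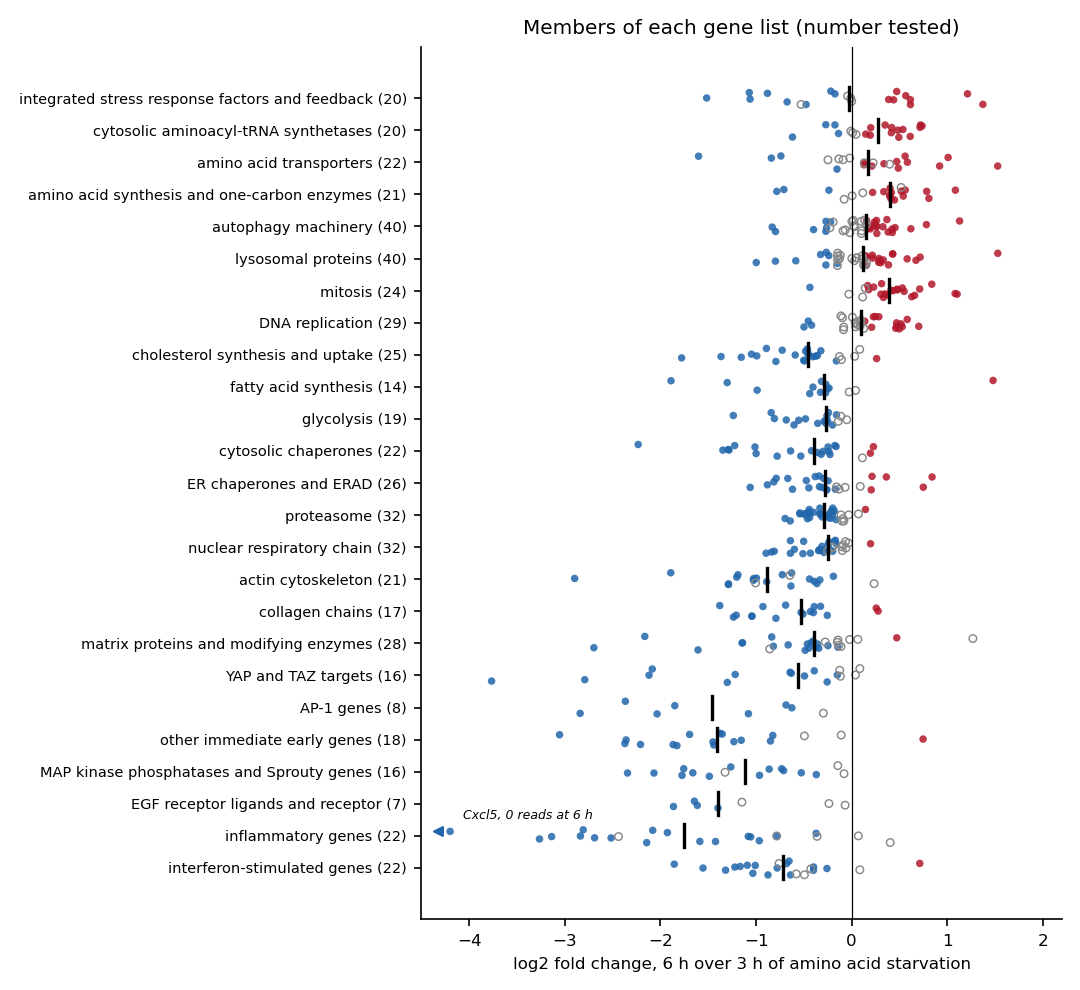
Log2 fold change of 6 h over 3 h for the tested members of 25 gene lists, with filled red points for members called higher, filled blue points for members called lower, open points for members not called, and a black bar for the median. Lists of cytosolic aminoacyl-tRNA synthetases, amino acid transporters, amino acid synthesis and mitosis lie mostly right of 0. Those of immediate early, inflammatory and actin genes lie mostly left of it, with Cxcl5 drawn at the left edge.

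Autophagy and lysosome genes moved in both directions, more of them up than down. Of the 40 genes of the autophagy machinery, 19 rose and 7 fell (median 0.14), but among the 26 whose exons overlap no other gene 9 rose and 7 fell (median 0.02). Stx17, a SNARE protein that fuses autophagosomes with lysosomes, had 14.1 and 13.1 CPM after 6 h, against 5.86 and 6.51 CPM after 3 h (log2 fold change 1.13 ± 0.12, edgeR adjusted p = 1.01e-08). Pik3r4 and Pik3c3, the VPS15 and VPS34 subunits of the lipid kinase complex that starts autophagosome formation, rose by 0.78 and 0.45. Map1lc3b, whose protein LC3B is conjugated to autophagosome membranes, was at 229.9 and 222 CPM after 6 h, against 187 and 189 CPM after 3 h (log2 fold change 0.26 ± 0.059, edgeR adjusted p = 0.000442). In the initiation complex, Atg13 and Ulk2 rose by 0.42 and 0.33, Atg101 fell by 0.26, and Ulk1 was not called at 78.4 and 79.5 CPM after 6 h, against 82.7 and 72.96 CPM after 3 h. The SNARE gene Vamp8 and Wipi2, which recruits the conjugation machinery, fell by 0.83 and 0.40.

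Of 15 cargo receptor genes, 4 rose and 3 fell, near the shares over all genes, of which 24.7% rose and 25.4% fell. Their median of 0.04 turned to -0.01 after correction for GC content and length. Nbr1, a receptor for ubiquitinated cargo, had 176 and 170.4 CPM after 6 h, against 112 and 110.4 CPM after 3 h (log2 fold change 0.64 ± 0.055, edgeR adjusted p = 8.79e-11). Calcoco1, a receptor for ER and Golgi membranes, and Ncoa4, for ferritin, rose by 0.56 and 0.46. Fundc1, for mitochondria, fell by 0.64. Sqstm1, the p62 receptor, was at 1235 and 1252 CPM after 6 h, against 1366 and 1369 CPM after 3 h, a fall of 0.14 that was not called with library totals (-0.039) or without any one of the 4 libraries (-0.13 to -0.15).

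Of the 40 lysosomal genes, 17 rose and 8 fell (median 0.12). Cln3, a lysosomal membrane protein, rose most, at 39.7 and 37.9 CPM after 6 h, against 14.1 and 12.8 CPM after 3 h (log2 fold change 1.53 ± 0.11, edgeR adjusted p = 2.4e-12), with the overlap of Apobr named above. Neu1, a sialidase, and Mcoln1, the lysosomal calcium channel, rose by 0.72 and 0.67, and the proton pump subunits Atp6v1c1, Atp6v1d and Atp6v0d1 by 0.58, 0.43 and 0.38. Gusb, a glycosidase, had 21.9 and 22.5 CPM after 6 h, against 46.7 and 42.04 CPM after 3 h (log2 fold change -0.998 ± 0.075, edgeR adjusted p = 4.39e-12), both libraries after 6 h below both after 3 h. Lipa, the acid lipase, and Scarb2, a membrane protein, fell by 0.80 and 0.58. In 300-base promoter windows the CLEAR element TCACGTGA, which MiT/TFE factors are known to bind, stood in 27.59% (8 of 29) of the lysosomal genes with a window, against 2.01% of all tested genes with one. Of those 8, Cln3, Mcoln1, Atp6v0d1 and Ctsa rose and Atp6v1a fell.

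Among 27 genes of the MiT/TFE factors and of mTORC1 control, 11 rose and 7 fell, with a median of 0.10. The factors themselves split, as Mitf rose by 0.45, while Tfeb and Tfe3 fell by 0.62 and 0.49. Tfe3 had 94.7 and 86.3 CPM after 6 h, against 127 and 127 CPM after 3 h (log2 fold change -0.49 ± 0.059, edgeR adjusted p = 6.02e-08). All 3 subunits of GATOR1, which holds mTORC1 inactive without amino acids, rose, Nprl3 by 0.56, Depdc5 by 0.39 and Nprl2 by 0.35. Fnip1, the partner of folliculin, had 244 and 237 CPM after 6 h, against 174 and 165 CPM after 3 h (log2 fold change 0.50 ± 0.073, edgeR adjusted p = 2.32e-06). Lamtor2 and Lamtor4, of the lysosomal anchor of mTORC1, fell by 0.76 and 0.86, and Lamtor3 of the same anchor rose by 0.29.

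Most genes of lipid synthesis fell between 3 h and 6 h without amino acids, and most rose over the same interval without glucose. Of the 25 genes of cholesterol synthesis and uptake, 1 rose and 20 fell (median -0.46). Hsd17b7, an enzyme of a late step of cholesterol synthesis, had 8.15 and 6.95 CPM after 6 h, against 19.4 and 19.3 CPM after 3 h (log2 fold change -1.37 ± 0.095, edgeR adjusted p = 9.4e-13). Cyp51, which demethylates the intermediate lanosterol, was at 50.8 and 51.9 CPM after 6 h, against 93.1 and 97.6 CPM after 3 h (log2 fold change -0.89 ± 0.059, edgeR adjusted p = 3.34e-13). Srebf2, the factor that drives these genes, had 166 and 167 CPM after 6 h, against 299 and 277 CPM after 3 h (log2 fold change -0.79 ± 0.061, edgeR adjusted p = 8.02e-12). Hmgcs1, an early enzyme of the pathway, fell by 0.38. Dhcr7, the single riser, gained 0.26.

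In glucose starvation the background was 5898 of 17696 genes called (33.3%), 3149 (17.8%) higher and 2749 (15.5%) lower after 6 h. There 23 of the 25 sterol genes rose and 0 fell (median 0.85). At least 2-fold changes were reached by 2.51% of all genes upward and 2.58% downward there, and libraries separated upward in 33.4% and downward in 29.3%. The difference of the changes, amino acid minus glucose, was tested in the same model and called for 5106 genes (28.9%), 2214 (12.5%) positive and 2892 (16.3%) negative, so that 43.4% were positive, or 53.4% with library totals. It was at least 2-fold and positive in 2.35% and negative in 3.2%. Among sterol genes it was negative in 24 and positive in 0, with a median of -1.37. Hsd17b7 had 61.9 and 56.3 CPM after 6 h of glucose starvation, against 27.7 and 29.5 CPM after 3 h. Its difference was -2.41 ± 0.13 on the log2 scale (edgeR adjusted p = 1.23e-14).

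Of the 14 genes of fatty acid synthesis, 1 rose and 11 fell (median -0.29), and the difference from glucose starvation was negative in 12 and positive in 1. Scd2, a desaturase, had 122 and 123 CPM after 6 h, against 304 and 302 CPM after 3 h (log2 fold change -1.30 ± 0.059, edgeR adjusted p = 6.01e-17), and 1163 and 1169 CPM after 6 h of glucose starvation, against 449 and 392 CPM after 3 h. Elovl6, which lengthens fatty acids, had 7.18 and 7.78 CPM after 6 h, against 27.5 and 28.1 CPM after 3 h (log2 fold change -1.89 ± 0.086, edgeR adjusted p = 8.36e-17), and 71.4 and 76.8 CPM after 6 h of glucose starvation, against 30.5 and 28.4 CPM after 3 h. In both genes the 6 h libraries lay below those of 3 h without amino acids and above them without glucose. The riser was Acacb, the carboxylase isoform of the mitochondrial surface, with 7.70 and 7.62 CPM after 6 h, against 2.78 and 2.71 CPM after 3 h (log2 fold change 1.48 ± 0.19, edgeR adjusted p = 2.37e-07). Among 17 genes of fatty acid oxidation, 3 rose and 10 fell (median -0.23). Pdk4, a kinase that inhibits pyruvate dehydrogenase, fell to 14.5 and 14.5 CPM after 6 h, against 54.9 and 52.8 CPM after 3 h (log2 fold change -1.89 ± 0.096, edgeR adjusted p = 9.55e-16). The thioesterases Acot1 and Acot2 rose by 1.03 and 1.10.

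Of the 19 glycolysis genes, 0 rose and 16 fell (median -0.27), and after 6 h of glucose starvation 0 rose and 3 fell. Pfkm, a phosphofructokinase, had 20.95 and 18.7 CPM after 6 h, against 46.9 and 46.4 CPM after 3 h (log2 fold change -1.24 ± 0.078, edgeR adjusted p = 1.06e-13), and Hk2, which traps glucose, had 81.5 and 79.9 CPM after 6 h, against 144 and 138 CPM after 3 h (log2 fold change -0.81 ± 0.063, edgeR adjusted p = 9.65e-12). The difference from glucose starvation was negative in 12 and positive in 0. Of 13 hypoxia-inducible genes, 3 rose and 5 fell, and their median of 0.04 was -0.09 after GC and length correction, -0.05 with no filter, -0.19 without genes whose exons overlap another and -0.07 and -0.04 without either library of 3 h. Vegfa, the vascular growth factor, fell to 365 and 385 CPM after 6 h, against 639 and 640.3 CPM after 3 h (log2 fold change -0.77 ± 0.052, edgeR adjusted p = 4.73e-13), and Ero1a, an ER oxidase, rose to 287 and 299.7 CPM after 6 h, against 151 and 156 CPM after 3 h (log2 fold change 0.94 ± 0.062, edgeR adjusted p = 3.58e-13). Txnip, an arrestin that limits glucose uptake, rose to 30.7 and 34.9 CPM after 6 h, against 15.5 and 13.1 CPM after 3 h (log2 fold change 1.20 ± 0.12, edgeR adjusted p = 1.19e-09), and its relative Arrdc2 rose by 1.10.

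**Figure D4:**
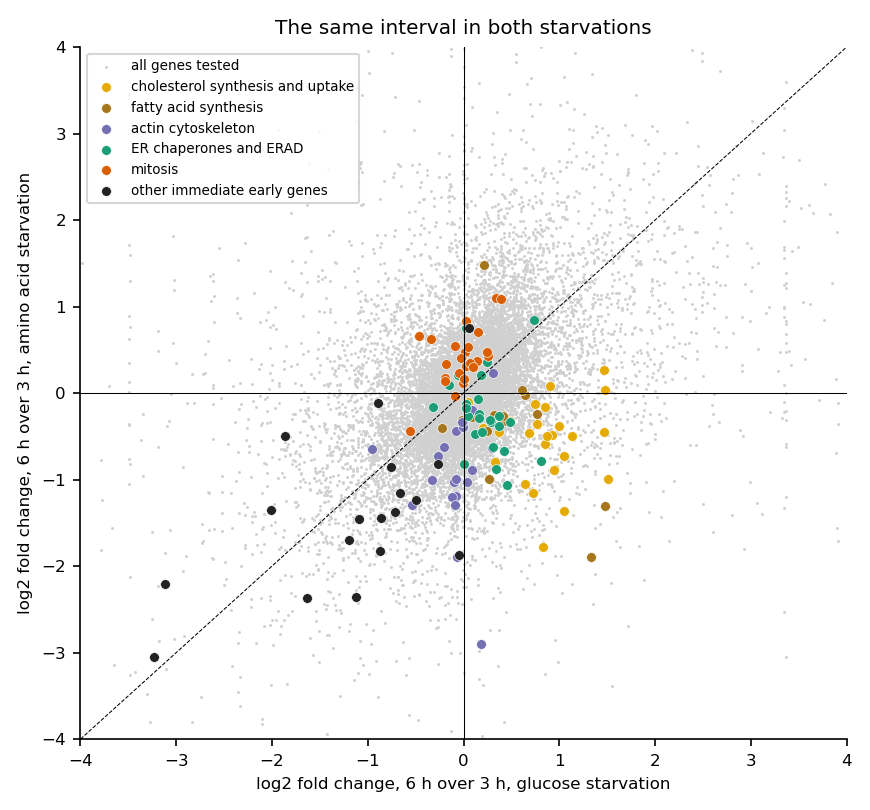
Log2 fold change of 6 h over 3 h in amino acid starvation (vertical axis) against the same in glucose starvation (horizontal axis), with all tested genes in grey, 6 lists in colour, a dashed line of equal change, and 268 genes beyond the range of 4 on either axis not drawn. Cholesterol and fatty acid synthesis genes lie mostly in the lower right, actin genes lie below the middle, and immediate early genes in the lower left.

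Most chaperone genes of the cytosol and of the ER fell between 3 h and 6 h. Of 22 cytosolic chaperones and heat shock factors, 2 rose and 19 fell (median -0.39). Hspa8, the constitutive HSP70, had 1162 and 1153 CPM after 6 h, against 2928 and 2964 CPM after 3 h (log2 fold change -1.35 ± 0.051, edgeR adjusted p = 9.66e-19), and 4949.9 and 5092 CPM after 6 h of glucose starvation, against 4430.2 and 4611 CPM after 3 h. Its libraries after 6 h lay below those of 3 h without amino acids and above them without glucose, with a difference of -1.50 ± 0.071 (edgeR adjusted p = 1.32e-15). Hsp90ab1, a constitutive HSP90, was at 2709.9 and 2682 CPM after 6 h, against 4203 and 4193 CPM after 3 h (log2 fold change -0.64 ± 0.05, edgeR adjusted p = 1.31e-11). The small heat shock protein Hspb1 and the inducible Hspa1a and Hspa1b fell by 2.23, 1.29 and 1.28, and the last pair are near-identical copies whose reads counting could split. Hspa4 and Chordc1 rose by 0.23 and 0.20. Among the 8 subunits of the chaperonin CCT, which folds actin and tubulin, 0 rose and 5 fell (median -0.32), Cct5 by 0.41 and Cct2 by 0.36.

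In the ER list of 26 chaperones and degradation genes, 5 rose and 17 fell (median -0.28), against 17 that rose and 0 that fell in glucose starvation. The difference was negative in 17 and positive in 2. Pdia4, a disulfide isomerase, had 87.9 and 86.9 CPM after 6 h, against 177 and 187 CPM after 3 h (log2 fold change -1.06 ± 0.052, edgeR adjusted p = 5.15e-16). Hspa5, the ER HSP70 known as BiP, was at 1326 and 1313 CPM after 6 h, against 1634 and 1705 CPM after 3 h (log2 fold change -0.34 ± 0.052, edgeR adjusted p = 2.72e-06), and Xbp1, a factor of the unfolded protein response, at 35.5 and 35.7 CPM after 6 h, against 60.9 and 64.3 CPM after 3 h (log2 fold change -0.81 ± 0.07, edgeR adjusted p = 8.3e-11). Both libraries of each gene after 6 h lay below both after 3 h. Ern1, the sensor IRE1, and Sel1l, an adaptor of ER-associated degradation, rose by 0.75 and 0.84. Of 32 proteasome genes, 1 rose and 25 fell (median -0.29), led by Psmb6 and Psmd13 at -0.70 and -0.64. Of 21 genes of the NRF2 and redox list, 0 rose and 18 fell (median -0.40). Among them Hmox1, a heme oxygenase, and Txnrd1, a thioredoxin reductase, fell by 0.70 and 0.72, and the factor gene Nfe2l2 itself by 0.68.

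Immediate early, feedback and inflammatory genes fell steeply between 3 h and 6 h. Of 8 AP-1 genes, 0 rose and 7 fell (median -1.47). Fosb had 8.08 and 9.29 CPM after 6 h, against 63.04 and 61.7 CPM after 3 h (log2 fold change -2.84 ± 0.12, edgeR adjusted p = 3.72e-17), Fosl2 had 56.99 and 60.7 CPM after 6 h, against 311 and 297 CPM after 3 h (log2 fold change -2.37 ± 0.06, edgeR adjusted p = 1.32e-22), and Junb, Fos and Jun fell by 2.04, 1.85 and 1.08. Of 18 other immediate early genes, 1 rose and 15 fell (median -1.41). Egr1, a zinc finger factor, was at 532 and 525 CPM after 6 h, against 1361 and 1343 CPM after 3 h (log2 fold change -1.35 ± 0.058, edgeR adjusted p = 1.78e-17). Myc, the growth factor-responsive oncogene, was at 306 and 303 CPM after 6 h, against 726 and 705 CPM after 3 h (log2 fold change -1.23 ± 0.056, edgeR adjusted p = 7.92e-17). Srf itself fell to 45.1 and 50.4 CPM after 6 h, against 164 and 175 CPM after 3 h (log2 fold change -1.83 ± 0.076, edgeR adjusted p = 1.8e-17). The nuclear receptor gene Nr4a2 rose, by 0.75, while its relative Nr4a1 fell by 2.37.

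Feedback genes of growth factor signalling fell as well. Of 16 MAP kinase phosphatase, Sprouty and Spred genes, 0 rose and 13 fell (median -1.11). Dusp1, which inactivates MAP kinases, had 28.5 and 27.97 CPM after 6 h, against 118 and 119 CPM after 3 h (log2 fold change -2.07 ± 0.065, edgeR adjusted p = 1.34e-20), and Spry2 had 48.1 and 47.5 CPM after 6 h, against 136 and 132 CPM after 3 h (log2 fold change -1.49 ± 0.063, edgeR adjusted p = 1.44e-17). Spred1 and Spred3 were not called, at -0.08 and -0.15. Of 7 genes of epidermal growth factor signalling, 0 rose and 4 fell: the ligands Hbegf, Areg and Ereg and the receptor inhibitor Errfi1, by 1.86, 1.40, 1.61 and 1.64. The receptor Egfr was not called, with 27.96 and 27.2 CPM after 6 h, against 28.6 and 29.2 CPM after 3 h. In glucose starvation 7 of the 8 AP-1 genes and 15 of the 18 other immediate early genes fell as well, as did 15 of the 16 feedback genes. The difference was negative in 4, 10 and 4 of them and positive in 0, 4 and 2. All 7 genes of epidermal growth factor signalling fell without glucose (median -1.53), with a difference negative in 1 and positive in 3. Over all genes the difference was negative in 16.3% and positive in 12.5%.

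Of the 22 inflammatory genes tested of 24 listed, 0 rose and 17 fell (median -1.76). Tnf and Ptges were too low to test. Ptgs2, cyclooxygenase 2, had 173 and 164 CPM after 6 h, against 728 and 698 CPM after 3 h (log2 fold change -2.08 ± 0.06, edgeR adjusted p = 1.38e-21). Ccl2, a monocyte chemokine, was at 17.97 and 18.05 CPM after 6 h, against 105 and 101 CPM after 3 h (log2 fold change -2.52 ± 0.076, edgeR adjusted p = 4.85e-21), and Tnfaip3, an inhibitor of NF-kappaB signalling, at 33.9 and 34.6 CPM after 6 h, against 150.2 and 153 CPM after 3 h (log2 fold change -2.14 ± 0.064, edgeR adjusted p = 3.3e-21). Cxcl5 had 0 reads in both 6 h libraries, against 0.631 and 0.755 CPM after 3 h. Csf1, the macrophage growth factor, fell to 149.9 and 144 CPM after 6 h, against 449.8 and 435 CPM after 3 h (log2 fold change -1.59 ± 0.054, edgeR adjusted p = 7.66e-20). Nfkb2 and Il6 were not called, at 0.07 and 0.40. In glucose starvation 1 inflammatory gene rose and 15 fell, and the difference was positive in 3 and negative in 10. Of 22 interferon-stimulated genes tested of 23 listed, 1 rose and 16 fell (median -0.72). Ddx58 and Ifit2, which sense or restrain viral RNA, fell by 0.68 and 0.64, and Stat2 rose by 0.71. In glucose starvation 2 interferon-stimulated genes rose and 15 fell. The difference was positive in 1 and negative in 4, against 12.5% and 16.3% of all genes.

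Genes of the actin cytoskeleton and the matrix fell, and the change differed from glucose starvation for most actin genes and for part of the matrix genes. Of 21 actin cytoskeleton genes, 0 rose and 18 fell (median -0.89), while in glucose starvation 2 rose and 3 fell (median -0.08). The difference was negative in 18 and positive in 0. Cnn2, a calponin that stabilises actin filaments, had 26.9 and 27.3 CPM after 6 h, against 204 and 200.5 CPM after 3 h (log2 fold change -2.90 ± 0.062, edgeR adjusted p = 3.69e-24), and 536 and 552 CPM after 6 h of glucose starvation, against 460.5 and 498 CPM after 3 h. Actg1 and Actb, the non-muscle actins, had 1113 and 1126 CPM after 6 h, against 4164 and 4146 CPM after 3 h (Actg1, log2 fold change -1.89 ± 0.057, edgeR adjusted p = 4.73e-21), and 1134 and 1140.3 CPM after 6 h, against 2629 and 2558 CPM after 3 h (Actb, log2 fold change -1.19 ± 0.051, edgeR adjusted p = 1.8e-17). Vcl, vinculin of focal adhesions, was at 372 and 379 CPM after 6 h, against 939.6 and 897 CPM after 3 h (log2 fold change -1.29 ± 0.055, edgeR adjusted p = 1.91e-17). Zyx, zyxin of the same adhesions, and Myh9, non-muscle myosin, fell by 1.29 and 1.20. The 3 members that were not called, Myl9, Cnn1 and Actg2, lay at or below 0.526 CPM in the 4 libraries.

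Of 16 YAP and TAZ genes, 0 rose and 12 fell (median -0.56). Besides Ccn2, its relative Ccn1 fell to 119 and 112 CPM after 6 h, against 503 and 503 CPM after 3 h (log2 fold change -2.12 ± 0.054, edgeR adjusted p = 1.32e-22), and Ankrd1 fell to 65.6 and 69.4 CPM after 6 h, against 156 and 158 CPM after 3 h (log2 fold change -1.22 ± 0.057, edgeR adjusted p = 1.59e-16). The factor genes Yap1 and Wwtr1 fell slightly, by 0.26 and 0.15, and the DNA-binding partner Tead1 was not called at 0.04. In glucose starvation 1 of the 16 rose and 10 fell. The difference was positive in 2 and negative in 10, against 12.5% and 16.3% of all genes. Of 17 collagen chains tested of 18 listed, 2 rose and 15 fell (median -0.53). Col1a2, of type I collagen, had 197 and 202 CPM after 6 h, against 521 and 518 CPM after 3 h (log2 fold change -1.38 ± 0.053, edgeR adjusted p = 1.65e-18), and its partner Col1a1 had 705 and 694 CPM after 6 h, against 1231 and 1192 CPM after 3 h (log2 fold change -0.79 ± 0.057, edgeR adjusted p = 1.85e-12). Col5a3 and Col7a1 rose by 0.26 and 0.28. In glucose starvation 1 collagen chain rose and 12 fell, and the difference was positive in 1 and negative in 9. Of 28 matrix proteins and modifying enzymes tested of 30, 1 rose and 18 fell (median -0.39). Thbs1, thrombospondin 1, had 162 and 162 CPM after 6 h, against 1081 and 1014 CPM after 3 h (log2 fold change -2.70 ± 0.071, edgeR adjusted p = 5.48e-22), and Timp3, an inhibitor of metalloproteinases, had 545 and 554 CPM after 6 h, against 2508 and 2416 CPM after 3 h (log2 fold change -2.16 ± 0.057, edgeR adjusted p = 2.5e-22). The riser was Fbln5, fibulin 5 of elastic fibres, at 0.47. Of these 28 genes 3 rose and 11 fell in glucose starvation, and the difference was positive in 2 and negative in 14. The fibroblast marker sum given above fell with these lists, shares collagen genes with them, and its part in them was not tested.

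Most mitosis genes rose, and cyclin D1 fell. Of 24 mitosis genes, 20 rose and 1 fell (median 0.39), and 5 rose and 6 fell in glucose starvation. The difference was positive in 19 and negative in 0. Aurka, the Aurora A kinase of the spindle pole, had 189 and 188 CPM after 6 h, against 87.96 and 87.7 CPM after 3 h (log2 fold change 1.10 ± 0.06, edgeR adjusted p = 4.19e-15). Cenpf and Cenpe, of the kinetochore, rose by 1.08 and 0.84. Mki67, which encodes the proliferation marker Ki-67, was at 725 and 709 CPM after 6 h, against 461 and 466 CPM after 3 h (log2 fold change 0.63 ± 0.068, edgeR adjusted p = 1.74e-08). Both libraries of each after 6 h lay above both after 3 h. The single gene that fell was Ccnb2, a mitotic cyclin, by 0.44.

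Of 29 genes of DNA replication, 13 rose and 3 fell (median 0.10), or 20 and 3 with library totals. In glucose starvation 0 rose and 16 fell, and the difference was positive in 20 and negative in 1. Mcm10, a factor that helps replication to start, had 214 and 221 CPM after 6 h, against 159 and 156 CPM after 3 h (log2 fold change 0.47 ± 0.053, edgeR adjusted p = 1.97e-08), and Cdc45, of the replicative helicase, rose by 0.58. Gins2, a partner of Cdc45 in that helicase, fell by 0.50. Of 10 D cyclins and CDK inhibitors, 1 rose and 6 fell (median -0.37). Ccnd1, cyclin D1, had 44.7 and 40.4 CPM after 6 h, against 98.7 and 93.1 CPM after 3 h (log2 fold change -1.17 ± 0.06, edgeR adjusted p = 1.21e-15), and Cdk6, its kinase partner, had 75.7 and 71.9 CPM after 6 h, against 153 and 148 CPM after 3 h (log2 fold change -1.03 ± 0.063, edgeR adjusted p = 5.57e-14). The riser was Cdkn2d, a CDK inhibitor, at 0.46. Of 20 p53 targets, 2 rose and 16 fell (median -0.47), with Cdkn1a, the p21 inhibitor, at -0.41, Plk2 at -1.97 and Trp53inp1, the strongest riser of the list, at 1.48.

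Among 16 FOXO factors and targets, a group tied to insulin signalling, 2 rose and 8 fell (median -0.29). The median was -0.18 without replicate 1 of 6 h, and among the 10 genes whose exons overlap no other 2 rose and 3 fell (median -0.07). Irs1, an adaptor of the insulin receptor, had 14.7 and 11.9 CPM after 6 h, against 32.4 and 31.02 CPM after 3 h (log2 fold change -1.26 ± 0.099, edgeR adjusted p = 1.2e-11), and Foxo1 and the second adaptor Irs2 fell by 0.96 and 0.76. Insr, the insulin receptor, rose by 0.76. Of 18 genes of the circadian clock, 3 rose and 9 fell (median -0.19), or 3 and 6 with library totals (median -0.10). Without replicate 2 of 6 h the median was -0.31. Bhlhe40, a repressor of clock genes, had 24.1 and 25.5 CPM after 6 h, against 86.9 and 85.4 CPM after 3 h (log2 fold change -1.80 ± 0.081, edgeR adjusted p = 6.74e-17). Nr1d1, the nuclear receptor REV-ERB alpha, and Per1 fell by 1.67 and 1.14, whereas Cry1 and Arntl, which encodes BMAL1, rose by 0.57 and 0.31.

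Genes of protein synthesis and respiration changed by smaller amounts. Of 48 cytosolic ribosomal protein genes, 0 rose and 10 fell (median -0.10), where 24.7% of all genes rose and 25.4% fell. With library totals 3 rose and 5 fell (median -0.0060). After GC and length correction 5 rose and 8 fell (median -0.019). In the fit to the groups compared alone 1 rose and 32 fell, and without any one of the 4 libraries 4 to 6 fell. Rps2 fell most, by 0.39. Of 25 translation factors, 4 rose and 8 fell, and the median of -0.09 became 0.0090 with library totals, where 10 rose and 5 fell. Of 30 ribosome biogenesis genes, 13 rose and 3 fell (median 0.09), or 20 and 3 with library totals. Wdr12, of large subunit assembly, rose by 0.51. Of 32 nuclear genes of the respiratory chain, 1 rose and 22 fell (median -0.25), or 1 and 13 with library totals. Ndufb10, of complex I, had 23.4 and 22.3 CPM after 6 h, against 42.4 and 42.5 CPM after 3 h (log2 fold change -0.90 ± 0.086, edgeR adjusted p = 1.11e-09). Of 13 protein genes of the mitochondrial genome, 5 rose and 0 fell (median 0.22), and after GC and length correction 1 rose and 2 fell (median -0.019). With library totals 10 rose, and in the fit to the groups compared alone 12 rose. mt-Cytb, of complex III, had 5037 and 5187 CPM after 6 h, against 4166 and 4344 CPM after 3 h (log2 fold change 0.26 ± 0.062, edgeR adjusted p = 0.000661), which was not called after the GC and length correction.

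The place of this interval in the whole course differed between genes. Egr1 stood at 82.1 and 82.6 CPM at 0 h, 1361 and 1343 CPM after 3 h, 532 and 525 CPM after 6 h and 43.1 and 47.7 CPM after 12 h of amino acid starvation, so that 3 h was the highest of the 4 times. Ccn2, also highest at 3 h, had at the same times 204 and 184 CPM, 1180.2 and 1177 CPM, 88.5 and 84.7 CPM and 20.4 and 21.4 CPM. Cnn2 was lower at each later time, with 352 and 339.9 CPM, 204 and 200.5 CPM, 26.9 and 27.3 CPM and 14.8 and 15.7 CPM. Apobr was higher at each later time, with 7.63 and 7.95 CPM, 38.3 and 33.7 CPM, 145 and 147 CPM and 216 and 209 CPM. Aurka was near its 0 h level at 3 h and higher from 6 h, with 99.95 and 107 CPM, 87.96 and 87.7 CPM, 189 and 188 CPM and 187 and 188 CPM. The cells at 0 h were not starved and were frozen in serum that was not dialyzed, so that the effects of starvation and of that handling cannot be told apart there.

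**Figure D5:**
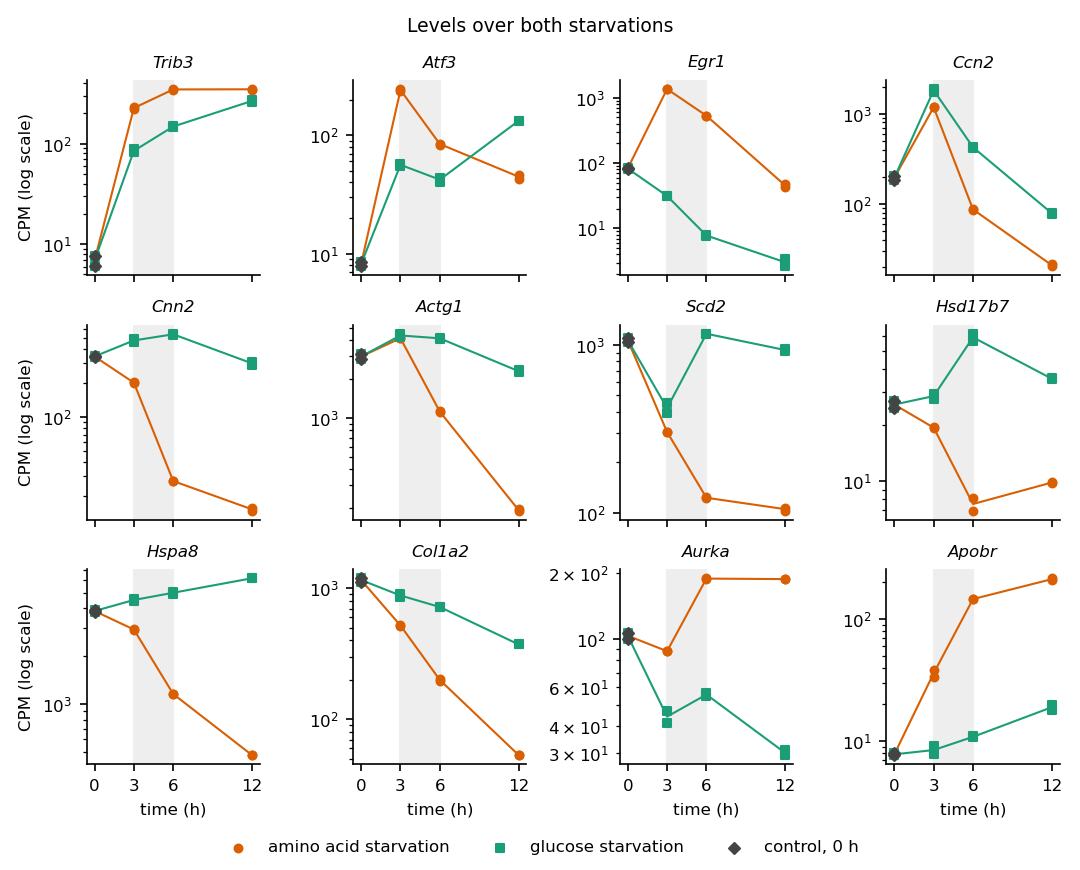
CPM on a log scale against time (0, 3, 6 and 12 h) for 12 genes in amino acid starvation (orange circles) and glucose starvation (green squares), with the shared control as grey diamonds, points for libraries, lines through the means of 2, and the interval from 3 h to 6 h shaded. Scd2, Hsd17b7 and Hspa8 fall over the shaded interval without amino acids and lie higher at its end without glucose.

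Across all genes, 3474 were called in the same direction in both starvations and 631 in opposite directions, 423 of them lower without amino acids and higher without glucose and 208 the reverse. The difference was also called for all 631, which the choice of opposite calls in the same fit makes nearly certain, so it adds no separate support. Of the 8869 genes called without amino acids, 46.3% were also called without glucose, and of the 5898 called without glucose 69.6% were also called without amino acids. Named examples of opposite change are Scd2, Elovl6, Hsd17b7, Hspa8 and Cnn2, given above, which were lower after 6 h without amino acids and higher after 6 h without glucose. Pcna, the sliding clamp of replication, went the other way, at 0.25 without amino acids and -0.42 without glucose.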

How the data were processed

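The series holds 14 RNA libraries from mouse embryonic fibroblasts, and their labels place 2 in each of 7 groups. The authors deposited a table of raw read counts, in whole numbers, with a line for each transcript. Per the submitters' processing notes, reads were handled with STAR (an aligner) and with bedtools on build GRCm39. Their versions, the annotation and the counting rule, including strand, are not given in the sources used here.

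The table has 67457 lines, of which 58 name no gene and hold 0% of the reads. Of 40800 genes, 13432 (32.9%) have several transcripts, and the one with the most reads over all libraries stood for each gene, which left 35270758 to 55349652 reads per library. Counts were fitted with edgeR 4.0.16 (R 4.3.3): filterByExpr left 17696 genes, TMM scaled the libraries, and a robust quasi-likelihood model with a mean for each of the 7 groups took in all 14 libraries (7 residual degrees of freedom, 20.9 prior, coefficient of variation 5.78%). The contrasts were 6 h minus 3 h of each starvation and their difference, two-sided, adjusted by Benjamini-Hochberg over all genes at 0.05. The spread was thus pooled over groups. Replicates differed by more than sampling noise, with a chi-square per degree of freedom of 4.57 after 6 h and 4.75 after 3 h of amino acid starvation.

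On counts simulated for amino acid starvation at 6 h against 3 h (17433 genes), the fit recovered 82.1% of 67 genes with a simulated log2 change of 0.5, 97% of 67 with 1 and 100% of 66 with 2, with 3 false among 189 calls. The changed genes were drawn from those with a mean CPM above 1, and all others were set equal between the times. In the data 50.1% of genes were called, so these rates need not hold for the comparison itself. The text names the 12 highest and 12 lowest fold changes among calls whose log2 CPM (pseudocount 0.5) averaged at least 3, 4 members of each list by smallest p, a fixed panel and the 6 highest and 6 lowest differences, as far as space allows, and some genes that this rule names are not reported here. Other members named beside them were chosen after their values were seen. The members of the comparison and the gene lists were chosen with earlier results of these data known.

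Alternatives were RLE scaling, library totals, no filter or a stricter one (CPM of 1 in 4 libraries), DESeq2 1.42.0, a fit to the groups compared alone, a replicate block, the sum of transcript lines and leaving out each library. Correcting for GC content and length, and a run without genes whose exons overlap another, were added after seeing the data. The reference annotation was of build GRCm38.p6, so that no positions of the files' genes are given. It served for overlaps, for GC content (known for 98% of tested genes) and, through RefSeq, for promoter windows.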

Additional observations from a re-analysis of the deposited data

Results flagged for a closer look

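Each group holds 2 libraries, which is too few to look for a library that stands apart within a group. The values below were singled out because the change from 3 h to 6 h differed between amino acid and glucose starvation by the test of that difference in edgeR's quasi-likelihood model, which called 5106 of 17696 genes (28.9%). They are the 6 highest and 6 lowest differences, amino acid minus glucose, on the log2 scale. The genes ranked had a mean log2 CPM of at least 3 over the libraries of both starvations. That mean can be reached through the group where a gene is high, as Sorbs2 reached it through its libraries without glucose.

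The highest difference belonged to Ifih1, the viral RNA sensor MDA5, at 1.86. It had 16.4 and 15.7 CPM after 6 h, against 20.99 and 21.3 CPM after 3 h without amino acids, and 2.82 and 2.58 CPM after 6 h, against 15.02 and 10.8 CPM after 3 h without glucose. Both starvations thus had lower levels after 6 h, but the fall without amino acids (-0.40 on the log2 scale) was not called without replicate 2 of 6 h (-0.36). Arap2, at 1.69, Hap1, at 1.73, H1f0, a linker histone, at 1.72, and the mitochondrial transfer RNA gene mt-Tm, at 1.64, lay higher after 6 h without amino acids and lower without glucose. Hap1 had 37.7 and 35.97 CPM after 6 h, against 17.96 and 16.4 CPM after 3 h without amino acids, and 6.04 and 7.58 CPM after 6 h, against 10.4 and 10.8 CPM after 3 h without glucose. Apobr, given in the report for its rise, had a difference of 1.66.

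The lowest differences belonged to Sorbs2, an adaptor of actin fibres, at -3.74, Elovl6 at -3.22, Cnn2 at -3.08, Gask1b at -3.08, Mir5114 at -2.94 and Scd2 at -2.77. In each of the 6 the libraries after 6 h lay below those after 3 h without amino acids and above them without glucose. Sorbs2 had 1.35 and 1.76 CPM after 6 h, against 7.27 and 7.17 CPM after 3 h without amino acids, and 26.7 and 28.8 CPM after 6 h, against 10.9 and 8.20 CPM after 3 h without glucose. Mir5114 lies within exon positions of Scd2, and Sorbs2, Elovl6, Gask1b and H1f0 share exon positions with noncoding genes, so that their reads may be counted for both.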

How the results depend on the processing

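The count of genes called between 6 h and 3 h of amino acid starvation stayed between 8498 and 9611 under RLE scaling, library totals, DESeq2, either filter, summed transcript lines, the fit to the groups compared and the GC and length correction, against 8869 as reported. Leaving out 1 library gave 7362 to 7440 (higher 3548 to 3641, lower 3754 to 3835). With the replicate block it was 9062, and no named call changed. Same-numbered 3 h and 6 h libraries deviated together with r = 0.228 over 9764 genes, but 2 pairs share only a number. Without genes whose exons overlap another, 9964 genes were tested, which lowers every count by construction: 5152 were called without amino acids (2539 higher, 2613 lower, of which 689 and 582 at least 2-fold), 3539 without glucose (1908 and 1631, of which 293 and 284) and 3181 for the difference (1382 and 1799, of which 272 and 366). The median of the mitochondrial genome reversed to -0.019 after GC and length correction, against 0.22, and Ddit3 (0.14) and Ulk1 (0.17) were then called. With library totals, which shift the median of all genes by construction, list medians also moved by over 1.5 times for eIF2 kinases (-0.09), mitochondrial synthetases (0.26), amino acid transporters (0.27), autophagy (0.24), cargo receptors (0.14), lysosome (0.22), MiT/TFE and mTORC1 (0.20), fatty acid synthesis (-0.20), fatty acid oxidation (-0.13), glycolysis (-0.17), hypoxia (0.14), ER (-0.18), FOXO (-0.19), DNA replication (0.20), ribosome biogenesis (0.19), proteasome (-0.19) and respiratory chain (-0.15), beside those given in the report. GC and length correction moved the medians of mitochondrial synthetases to 0.27, of MiT/TFE and mTORC1 genes to 0.17 and of D cyclins to -0.20, and 8 rather than 5 CCT genes then fell. The cause was not tested. Without replicate 1 of 6 h, 5 rather than 8 stress response genes fell. Without replicate 2 of 3 h, or either 6 h library, 2 rather than 4 cytosolic synthetases fell. Without replicate 1 of 3 h or either 6 h library, 3 to 4 rather than 7 autophagy genes fell. Translation factors had 8 higher and 13 lower in the fit to the groups compared, against 2 to 3 higher and 5 to 6 lower without replicate 1 of 3 h, replicate 2 of 3 h or replicate 1 of 6 h. Among Atf4, Sqstm1, Gcn1, Tek and Ifih1, no lost call turned direction. The number of libraries, 2 a group, limits the precision of each mean, and genes of a few CPM have wide errors.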
